A study of Mus musculus with 30 samples.

Results

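The genes described here are 37 integrin and cell adhesion genes, taken from a list of gene symbols. Of these, 36 had a row among the 23420 genes of the tables, and 34 passed the filter on low counts and were tested. The symbol Rapl had no row of its own; RefSeq gives it as a synonym of Rassf5, which was measured under that name. Itga1 and Itgb8 fell under the filter and are given by their levels alone. By role, the measured members were 4 genes of the beta2 integrins, 6 of the beta1 integrins, 3 of the beta7 group, 4 of the alphav and beta3 group, 5 genes for selectin ligands and Cd44, 6 receptors of the immunoglobulin and CD2 families, 5 genes that switch integrins on, and 3 genes of adhesion complexes.

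The study compared mouse CD4 T helper cells that did or did not express interleukin 10 (IL-10), a cytokine that restrains inflammation, in 5 kinds of culture. The mice were C57BL/6 animals that carried 2 reporters, GFP for Foxp3 and Thy1.1 for IL-10, and every group shares them. Naive CD4+CD44-CD62L+GFP- cells were activated with 2.5 µg/ml soluble anti-CD3 and 6 irradiated, CD4-depleted splenocytes per T cell. Th1 cultures received 20 ng/ml IL-12, Th2 cultures 20 ng/ml IL-4, non-pathogenic Th17 cultures 2 ng/ml TGFb1 with 25 ng/ml IL-6, pathogenic Th17 (pTh17) cultures 20 ng/ml IL-1β, 25 ng/ml IL-6 and 20 ng/ml IL-23, and type 1 regulatory (Tr1) cultures 25 ng/ml IL-27. After 72 hours, viable GFP-negative T cells were sorted again into an IL-10 positive and an IL-10 negative compartment, and 2000 cells were lysed for each of the 3 libraries per group, 30 libraries in all. The labels print Thy1.1+ for both compartments, so the compartment was taken from the library titles.

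Integrins are pairs of an alpha and a beta chain that anchor a cell to other cells or to matrix. On T cells the beta2 pairs bind ICAM proteins on antigen presenting cells and endothelium, alpha4 with beta7 or beta1 binds the vascular addressins of gut or inflamed tissue, and most beta1 pairs bind collagen, laminin or fibronectin. Resting integrins bind weakly until Rap1, talin and kindlin-3 switch them on, and the first, rolling contact with a vessel is made by sugars that fucosyl and sialyl transferases build on carriers such as PSGL-1 and that selectins recognise.

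The libraries held between 4394704 and 11850597 expected counts. Il10 checked the labels: it lay between 34.9 and 1236 TPM (a level scaled to library depth and gene length) in the IL-10 positive libraries and between 0 and 98.7 TPM in the IL-10 negative libraries, without overlap within any culture. Between cultures Il10 did overlap: IL-10 negative Th2 libraries had 84.4 to 98.7 TPM, above every IL-10 positive library of Th17, pTh17 and Tr1 cells. Cd4 was between 276 and 485 TPM in every library, and Foxp3 was at or under 1.76 TPM. Depth moved with the compartment in Th17 cultures, where IL-10 positive libraries held 9410288 to 9774881 and IL-10 negative libraries 5695832 to 5915474 expected counts. It also did in Th1 cultures, at 7540038 to 9434381 in IL-10 positive and 5465169 to 7466395 in IL-10 negative libraries, without overlap. Nothing in the labels says that the libraries of a group came from separate animals or cultures. A p-value here therefore speaks only of the spread of libraries within groups, which may be technical. That spread was estimated once over all 10 groups and not for each group. Tr1 libraries were less alike: IL-10 positive replicate 18 differed from replicates 16 and 17 by a chi-square of 12.7 and 13.9 per degree of freedom. Replicates 16 and 17 differed by 3.58. In IL-10 negative Tr1 cells these values were 6.43 and 9.72, against 3.25. No pair of replicates in another culture exceeded 9.26. Marker sums of other cell types, in CPM (counts scaled to library depth), moved with the compartments too. The 11 B cell markers summed to 45.4 to 55.8 CPM in IL-10 positive and 15.5 to 20.3 CPM in IL-10 negative Th1 cells. In Th2 cells that sum was 46.9 to 64.2 CPM in IL-10 positive and 41.2 to 44.2 CPM in IL-10 negative cells, and in Th17 cells 20.6 to 24.4 CPM in IL-10 positive and 6.87 to 10.2 CPM in IL-10 negative cells. The 2 CD8 T cell markers summed to 42.6 to 51.2 CPM in IL-10 positive and 23.6 to 27.3 CPM in IL-10 negative Tr1 cells. They summed to 30.3 to 36.4 CPM in IL-10 positive and 19.9 to 27.6 CPM in IL-10 negative Th1 cells, and to 17.005 to 18.8 CPM in IL-10 positive and 9.40 to 12.1 CPM in IL-10 negative Th2 cells. In Th17 cells the CD8 sum was 6.26 to 9.79 CPM in IL-10 positive and 9.42 to 12.6 CPM in IL-10 negative cells. In pTh17 cells it was 19.6 to 22.5 CPM in IL-10 positive and 21.6 to 24.5 CPM in IL-10 negative cells. The part of these other cell types in the IL-10 differences was not tested. The cells were measured in bulk, so fewer cells of a type and less RNA per cell cannot be told apart.

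**Figure D1:**
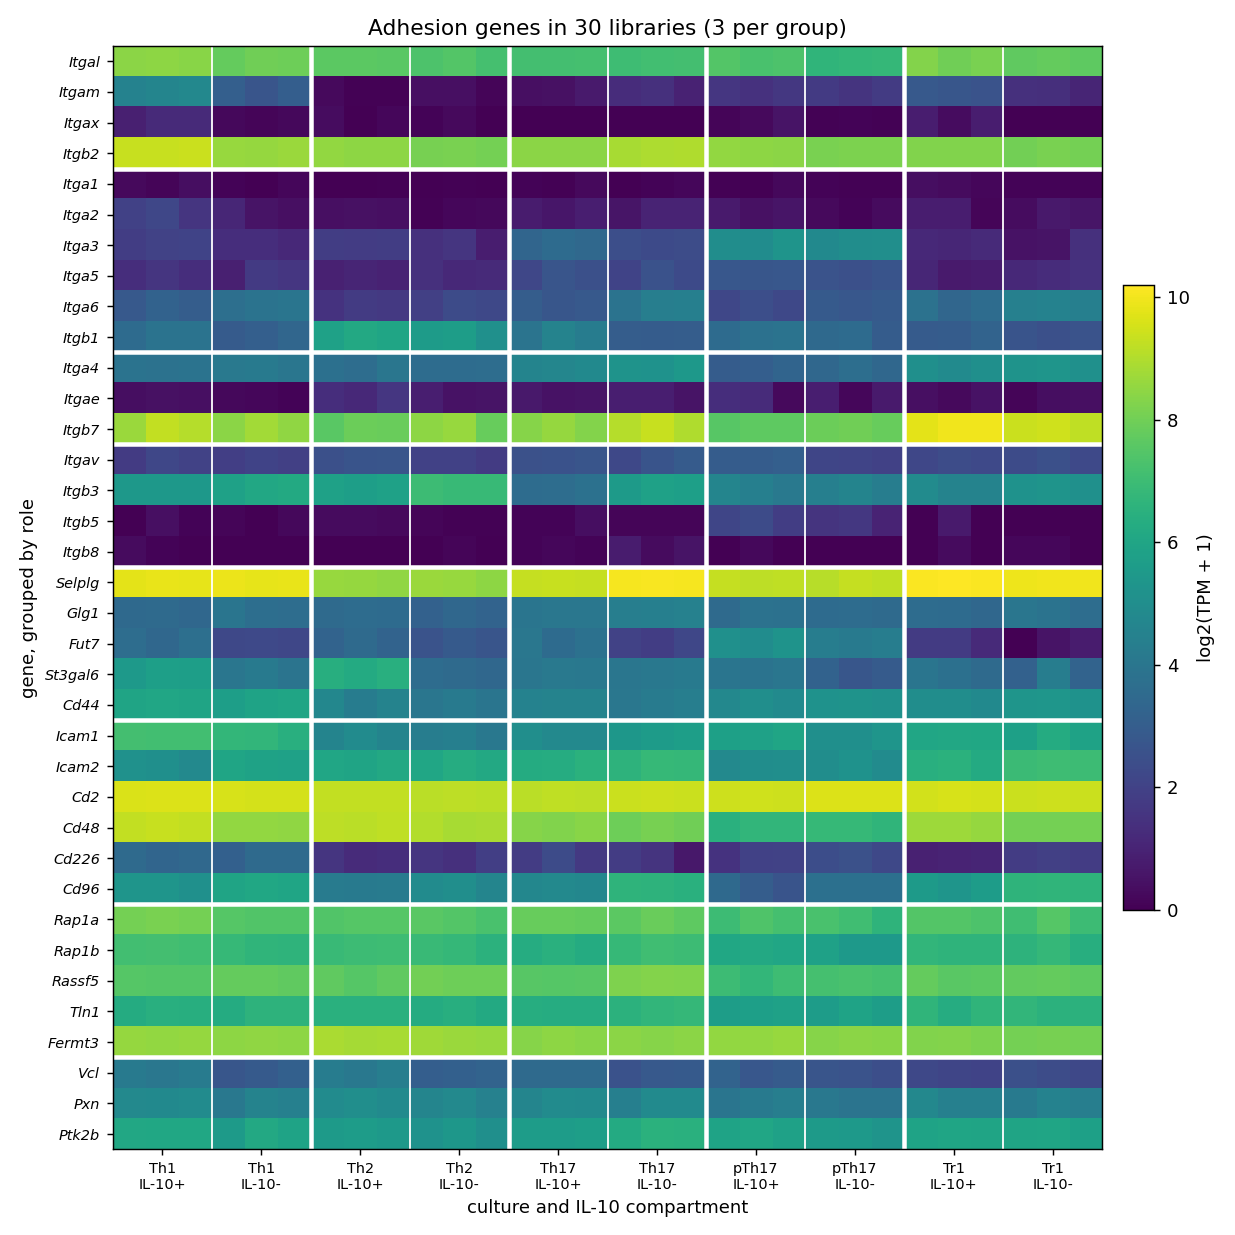
Level of the 36 measured genes (rows, grouped by role) in each of the 30 libraries (columns, 3 per group), as log2(TPM + 1), with IL-10 positive left of IL-10 negative libraries in each culture. Selplg, Itgb7, Cd2, Itgb2 and Fermt3 are bright in all columns, while Itgam, Itga3, Itgb5 and Itgb1 stand out in single cultures.

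The comparison of IL-10 positive with IL-10 negative cells asked which adhesion genes went with IL-10 expression in each culture. Members rose with IL-10 more often than they fell in Th1, Th2 and Tr1 cells, and fell more often in Th17 cells. Changes were tested by the quasi-likelihood method of edgeR, p-values were adjusted over 12611 genes after Benjamini and Hochberg, and a change was called at an adjusted p below 0.05. In Th1 cells 25 of 34 tested members were called, 18 higher and 7 lower in IL-10 positive cells, where 43.8% of all genes were called, 23.5% higher and 20.4% lower. In Th2 cells 22 were called, 17 higher and 5 lower, against 21.8% of all genes, 12.3% higher and 9.49% lower. In Th17 cells 25 were called, 10 higher and 15 lower, against 58.2% of all genes, 29.2% higher and 28.9% lower. In pTh17 cells 18 were called, 9 in each direction, against 18.5% of all genes, 10.1% higher and 8.33% lower. In Tr1 cells 19 were called, 13 higher and 6 lower, against 34.7% of all genes, 20.5% higher and 14.2% lower.

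The median log2 fold change of the tested members was 0.44 in Th1, 0.26 in Th2, -0.10 in Th17, 0.11 in pTh17 and 0.20 in Tr1 cells. Over all tested genes the medians were -0.019, 0.0068, -0.042, -0.0049 and 0.046 in the same order. Leaving out Itgax and Itgb5 where a group was at 0 counts, the members' medians were -0.14 in Th17 and 0.18 in Tr1 cells. Averaged over the 5 cultures, 26 members were called, 19 higher and 7 lower, against 57.8% of all genes, 29.6% higher and 28.2% lower. Over the single cultures, Fut7 and Itgal were called higher in all 5, as were 1.78% of all genes, and Cd96 and Itga6 were called lower in all 5, as were 1.39% of all genes. A further 12 of 34 members were called higher in at least 1 culture and lower in at least 1 other, against 13.5% of all genes. Itga5 was called in none, as were 21.4% of all genes. When the equality of the 5 differences was tested directly, 29 of 34 members differed between cultures, against 60.7% of all genes.

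**Figure D2:**
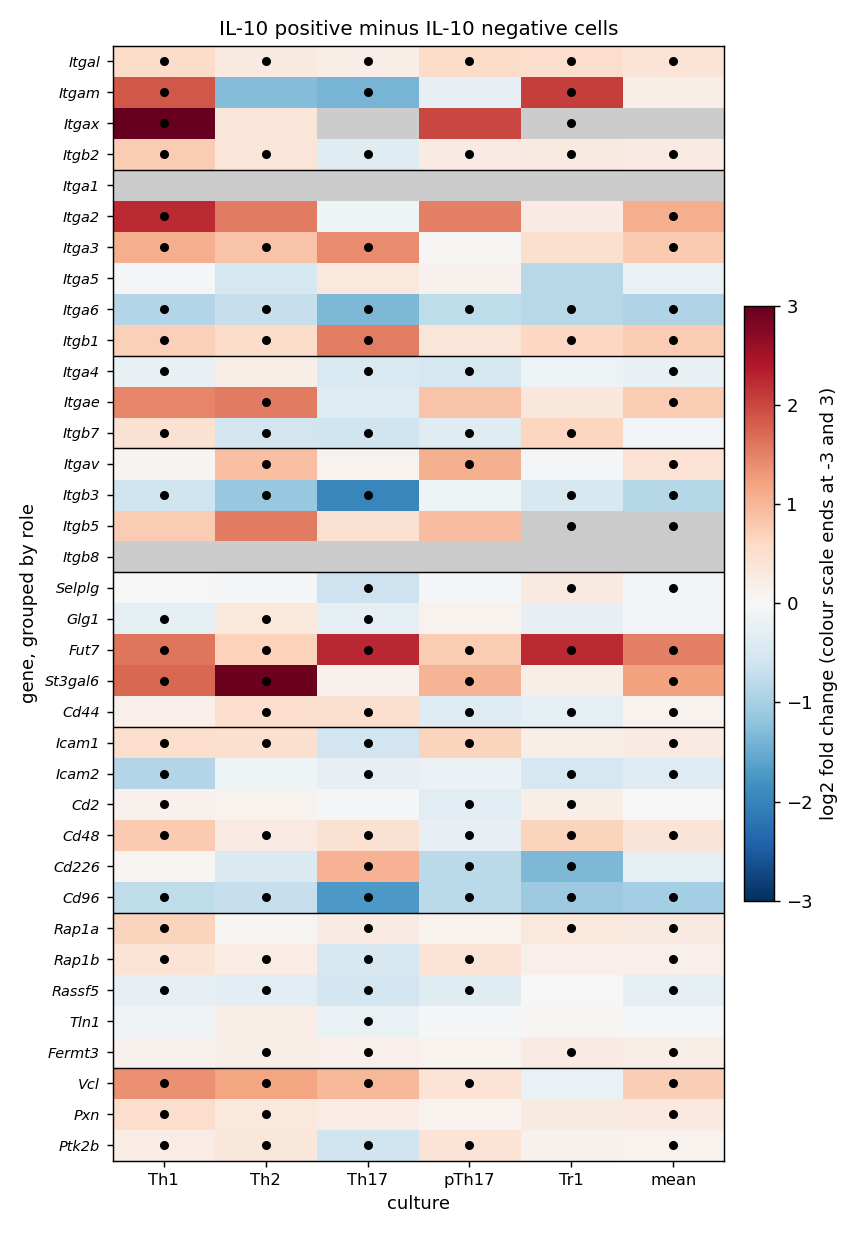
Log2 fold change of IL-10 positive over IL-10 negative cells (colour) for each gene in the 5 cultures and their mean. Dots mark an adjusted p below 0.05, and grey marks genes not tested or with a group at 0 counts, for which no fitted size is shown. Fut7 and Itgal are red with a dot in all 5 cultures, Cd96 and Itga6 are blue with a dot in all 5, and 12 genes change colour between cultures in which they were called.

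The cultures were then compared with each other, each against the mean of the other 4, with both compartments averaged. These 5 comparisons share libraries, since each culture is also part of the others' mean. In Th1 cultures 31 of 34 members were called, 25 higher and 6 lower, against 60% of all genes, 32.6% higher and 27.4% lower. In Th2 cultures 29 were called, 13 higher and 16 lower, against 78.6% of all genes, 39.4% higher and 39.2% lower. In Th17 cultures 20 were called, 7 higher and 13 lower, a share near the 57.5% of all genes, 29.1% higher and 28.4% lower. In pTh17 cultures 29 were called, 10 higher and 19 lower, against 66.1% of all genes, 34.3% higher and 31.8% lower. In Tr1 cultures 27 were called, 13 higher and 14 lower, against 72.2% of all genes, 36.5% higher and 35.7% lower. Median log2 fold changes of the members were 0.48 in Th1, -0.080 in Th2, -0.081 in Th17, -0.29 in pTh17 and -0.043 in Tr1 cultures, and the medians over all genes lay between -0.036 and 0.026. All 34 tested members differed somewhere among the cultures, as did 95.6% of all genes.

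**Figure D3:**
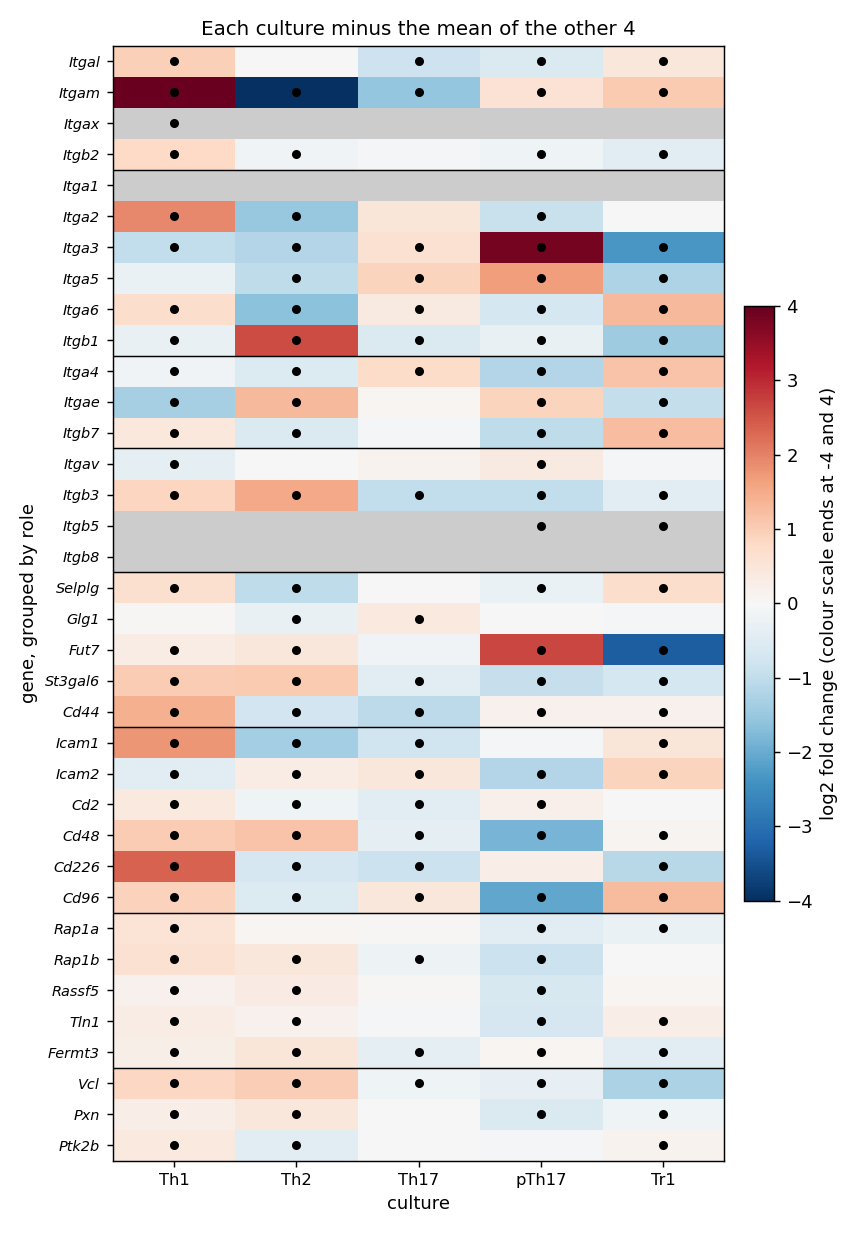
Log2 fold change of each culture over the mean of the other 4 (colour), with both compartments averaged. Dots mark an adjusted p below 0.05, and grey marks genes not tested or with a group at 0 counts. The Th1 column holds 25 genes called higher and the pTh17 column 19 called lower, and Itga3 and Fut7 turn from red in pTh17 to blue in Tr1 cultures.

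Among the beta2 integrins, both chains of LFA-1, the main ICAM receptor of T cells, were abundant in every group and were highest in IL-10 positive Th1 cells. Itgal encodes its alpha chain. It had 338, 347 and 336 TPM in IL-10 positive Th1 cells, against 217, 254 and 245 TPM in IL-10 negative Th1 cells (log2 fold change 0.54 ± 0.062 (SE), adjusted p = 2.29e-09). In Tr1 cultures it had 313, 254 and 284 TPM in IL-10 positive Tr1 cells, against 206, 219 and 199.8 TPM in IL-10 negative Tr1 cells, and in pTh17 cultures 177, 153 and 160.4 TPM in IL-10 positive pTh17 cells, against 102, 107 and 111 TPM in IL-10 negative pTh17 cells. In each of these 3 cultures every IL-10 positive library lay above every IL-10 negative one. It also rose in Th2 cells, at 0.28 ± 0.062 on the log2 scale, and in Th17 cells, at 0.20 ± 0.063 with adjusted p = 0.00719. In Th17 cells the TPM values overlapped, at 139, 139 and 143 in IL-10 positive and 129, 138 and 140.0 in IL-10 negative cells.

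Itgb2 encodes the beta chain that all these pairs share. It had 653, 645 and 668 TPM in IL-10 positive Th1 cells, against 394, 383 and 398 TPM in IL-10 negative Th1 cells (log2 fold change 0.77 ± 0.053 (SE), adjusted p = 5.04e-15). It also rose in Th2, pTh17 and Tr1 cells, by 0.37, 0.24 and 0.27 on the log2 scale, with no overlap between compartments. Th17 cells went the other way, with 342, 338 and 344 TPM in IL-10 positive Th17 cells, against 463, 496 and 508 TPM in IL-10 negative Th17 cells (log2 fold change -0.37 ± 0.053 (SE), adjusted p = 1.99e-07). The 5 differences were unequal for Itgb2 (adjusted p = 5.39e-14), and its alpha partner Itgal rose in Th17 cells where Itgb2 fell. Across cultures, Th1 exceeded the mean of the other 4 by 0.94 ± 0.033 for Itgal and 0.80 ± 0.028 for Itgb2 on the log2 scale, and the Itgal value of Th17 cultures was -0.83 ± 0.037.

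Itgam, the alpha chain of the complement receptor Mac-1 that myeloid and NK cells carry, varied more between cultures than Itgal or Itgb2. It had 21.7, 24.2 and 26.3 TPM in IL-10 positive Th1 cells, against 7.50, 5.44 and 7.33 TPM in IL-10 negative Th1 cells (log2 fold change 1.86 ± 0.17 (SE), adjusted p = 6.43e-12). In Tr1 cells it had 6.24, 5.63 and 5.07 TPM in IL-10 positive Tr1 cells, against 1.64, 1.58 and 1.09 TPM in IL-10 negative Tr1 cells (log2 fold change 2.08 ± 0.25 (SE), adjusted p = 1.71e-08). Both pairs of compartments were fully apart. In Th17 cells the level was low and the direction opposite, with 0.32, 0.37 and 0.67 TPM in IL-10 positive Th17 cells, against 1.42, 1.65 and 0.94 TPM in IL-10 negative Th17 cells (log2 fold change -1.40 ± 0.36 (SE), adjusted p = 0.000994). Itgam stayed at or under 0.33 TPM in all 6 Th2 libraries and between 1.72 and 2.39 TPM in all 6 pTh17 libraries. The Th2 difference was -1.30 (adjusted p = 0.107) and became -2.71 (adjusted p = 0.00998) without IL-10 positive replicate 7. Set against the other 4 on the log2 scale, Th1 cultures differed by 3.97 ± 0.11 and Th2 cultures by -4.05 ± 0.22.

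Itgax, which encodes CD11c, was scarce. It had 0.85, 1.33 and 1.34 TPM in IL-10 positive Th1 cells, against 0.17, 0.09 and 0.18 TPM in IL-10 negative Th1 cells (log2 fold change 3.07 ± 0.73 (SE), adjusted p = 0.000811), and 0.74, 0.27 and 0.76 TPM in IL-10 positive Tr1 cells, against 0 in all 3 IL-10 negative libraries. With 18 expected counts against 0, Itgax was at least 7.24-fold higher in IL-10 positive Tr1 cells, taking 3 counts over the group as the floor. No Th17 library held a count. Markers of other cells that carry these chains were measured beside them. The summed level of the 12 myeloid markers was 16.1 to 21.6 CPM in IL-10 positive and 8.08 to 9.97 CPM in IL-10 negative Th1 cells, and 15.99 to 17.4 CPM in IL-10 positive and 11.2 to 15.1 CPM in IL-10 negative Tr1 cells. In Th1 cells Fcgr3 averaged 13.9 CPM in IL-10 positive and 6.33 CPM in IL-10 negative cells, Cd68 2.47 CPM in IL-10 positive and 1.32 CPM in IL-10 negative cells, and Tyrobp 1.13 CPM in IL-10 positive and 0.069 CPM in IL-10 negative cells. The other 9 averaged at or under 0.49 CPM in either Th1 compartment, with S100a8 and S100a9 at 0 in IL-10 positive Th1 cells. Of the 7 NK markers, the sum was 82.5 to 85.7 CPM in IL-10 positive and 7.95 to 8.52 CPM in IL-10 negative Th1 cells, and 60.2 to 68.9 CPM in IL-10 positive and 5.69 to 6.49 CPM in IL-10 negative Tr1 cells. Klrk1, which activated T cells can also express, made up 82.4 and 61.7 CPM of the IL-10 positive sums, and none of the other 6 averaged above 0.64 CPM in Th1 or Tr1 cells. Of these, Klre1 averaged 0.39 CPM in IL-10 positive Th1 cells and was at 0 in IL-10 negative Th1 cells, Klra8 averaged 0.42 CPM in IL-10 positive and 0.054 CPM in IL-10 negative Th1 cells, and Ncr1 averaged 0.35 CPM in IL-10 positive and 0.14 CPM in IL-10 negative Tr1 cells. Ncr1 was at 0 in IL-10 positive Th1 cells and Klra4 in every group. The part of such cells in the Itgam and Itgax values was not tested.

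**Figure D4:**
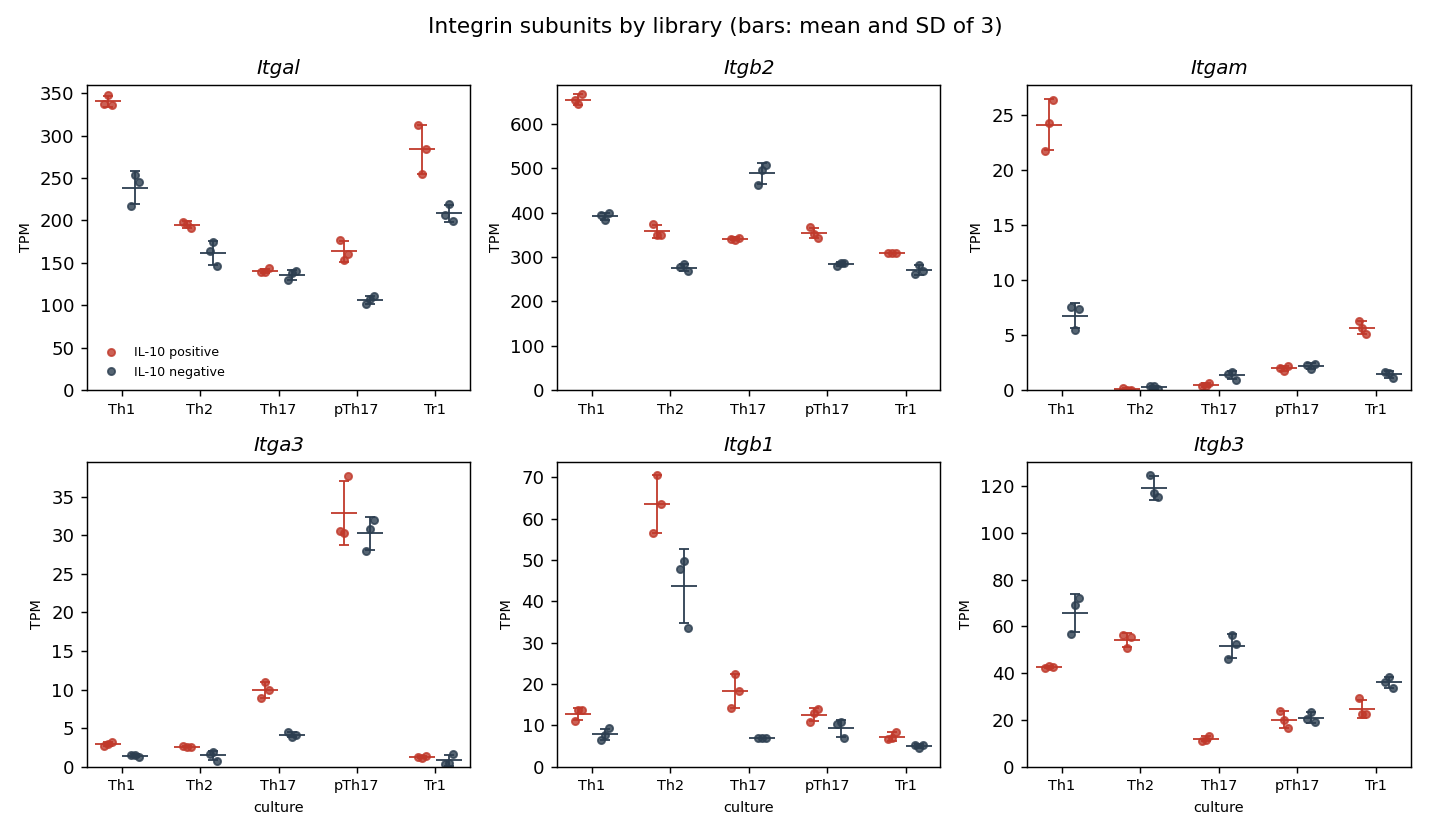
TPM of 6 integrin subunits in each library (points; bars give the mean and SD of 3 libraries), IL-10 positive in red left of IL-10 negative in dark blue, by culture. Itgal, Itgb2 and Itgam peak in IL-10 positive Th1 cells, Itga3 in both pTh17 compartments and Itgb1 in both Th2 compartments. Itgb3 is lower in IL-10 positive than in IL-10 negative Th1, Th2, Th17 and Tr1 cells.

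The beta1 integrins were split by culture. Itgb1, the shared beta chain of the collagen, laminin and fibronectin receptors, was highest in Th2 cultures. It had 56.5, 70.5 and 63.5 TPM in IL-10 positive Th2 cells, against 47.9, 49.7 and 33.5 TPM in IL-10 negative Th2 cells (log2 fold change 0.55 ± 0.12 (SE), adjusted p = 0.000784), while the group means of the other cultures lay between 5.0 and 18.2 TPM. Th2 cultures exceeded the mean of the other 4 by 2.61 ± 0.069 on the log2 scale. Within Th17 cultures Itgb1 had 14.1, 22.3 and 18.2 TPM in IL-10 positive Th17 cells, against 7.00, 6.83 and 6.94 TPM in IL-10 negative Th17 cells (log2 fold change 1.54 ± 0.17 (SE), adjusted p = 3.14e-10). It also rose with IL-10 in Th1 cells, at 0.73 ± 0.16, and in Tr1 cells, at 0.62 ± 0.21. The Tr1 call rested on single libraries: the log2 fold change was 0.44 (adjusted p = 0.179) without IL-10 positive replicate 18 and 0.52 (adjusted p = 0.0865) without IL-10 negative replicate 17.

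Itga3, the alpha chain of a laminin receptor, was highest in pTh17 cultures. It had 30.6, 30.3 and 37.7 TPM in IL-10 positive pTh17 cells, against 27.9, 30.8 and 32.0 TPM in IL-10 negative pTh17 cells, and the compartments overlapped (log2 fold change 0.044 ± 0.13 (SE), adjusted p = 0.885). In Th17 cells it had 8.90, 11 and 9.93 TPM in IL-10 positive Th17 cells, against 4.43, 3.84 and 4.15 TPM in IL-10 negative Th17 cells, with all IL-10 positive libraries above (log2 fold change 1.41 ± 0.18 (SE), adjusted p = 2.53e-08). All other groups averaged under 3 TPM. Against the other 4 on the log2 scale, pTh17 cultures differed by 3.84 ± 0.083 and Tr1 cultures by -2.32 ± 0.17. Itga3 also rose with IL-10 in Th1 cells, at 1.09 ± 0.25, and in Th2 cells, at 0.86 ± 0.22, though the Th2 value was 0.55 (adjusted p = 0.0656) without IL-10 negative replicate 9. In Tr1 cells IL-10 negative replicate 18, at 1.63 TPM, lay above all 3 IL-10 positive libraries, and without it the difference was 1.62 (adjusted p = 0.00504) in place of 0.47.

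RefSeq lists a pair of start sites for Itga3, and the stretch around each is shown because no other beta1 alpha chain differed as widely between cultures. Both lie on the minus strand of mouse GRCm38.p6, at chr11:95076665-95076964 for the upstream start and chr11:95069149-95069448 for the downstream one, from 250 bases before to 50 bases after the start. Capitals mark letters of 6 short motifs searched on both strands, here an ETS motif (CCGGAAG) at position -89 upstream and an AP-1 motif (TGANTCA) at position 12 downstream.
Itga3, upstream start: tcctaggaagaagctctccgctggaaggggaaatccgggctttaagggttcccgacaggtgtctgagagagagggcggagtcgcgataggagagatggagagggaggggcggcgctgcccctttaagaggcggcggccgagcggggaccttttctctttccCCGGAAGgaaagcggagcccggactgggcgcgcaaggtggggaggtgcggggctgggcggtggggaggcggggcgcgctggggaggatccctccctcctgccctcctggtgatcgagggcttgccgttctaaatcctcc
Itga3, downstream start: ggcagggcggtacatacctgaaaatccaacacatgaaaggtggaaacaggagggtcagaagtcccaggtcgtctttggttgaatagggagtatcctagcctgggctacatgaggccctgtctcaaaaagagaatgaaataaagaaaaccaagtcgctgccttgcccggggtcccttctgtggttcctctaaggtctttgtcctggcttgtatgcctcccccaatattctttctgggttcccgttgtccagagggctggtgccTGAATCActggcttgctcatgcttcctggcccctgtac
The ETS letters are in 8.86% and the AP-1 letters in 7.81% of 32817 mouse promoters of that length. Each was found in 2 of the 27 promoters listed for 24 members, as were the letters GATAAG for GATA factors (7.45% of all promoters), GGTGTGA for T-box factors (3.98%) and TTCNNNGAA for STAT factors (8.29%). The letters AGGTCA, for ROR factors, were in 0 of 27 and in 16.26% of all promoters. The tables hold 1 transcript for Itga3, so which start was in use was not measured.

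Itga6, an alpha chain of laminin receptors that naive T cells carry, fell with IL-10 in all 5 cultures. It had 7.00, 5.54 and 6.22 TPM in IL-10 positive Th17 cells, against 13.7, 19.7 and 20.0 TPM in IL-10 negative Th17 cells (log2 fold change -1.35 ± 0.14 (SE), adjusted p = 1.86e-10). In Tr1 cells it had 13.4, 9.28 and 11.2 TPM in IL-10 positive Tr1 cells, against 20.7, 22.1 and 20.1 TPM in IL-10 negative Tr1 cells (log2 fold change -0.82 ± 0.14 (SE), adjusted p = 1.68e-05), and in Th1 cells 6.24, 8.28 and 7.10 TPM in IL-10 positive Th1 cells, against 12.4, 13.6 and 14.7 TPM in IL-10 negative Th1 cells. No IL-10 positive library reached an IL-10 negative one in any of the 5 cultures. Its log2 fold change was -0.69 ± 0.17 in Th2 and -0.76 ± 0.17 in pTh17 cells. Tr1 cultures were highest, at 1.29 ± 0.081 against the other 4, and Th2 cultures lowest, at -1.65 ± 0.094.

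Itga2, the alpha chain of a collagen receptor, was low, and its clear difference lay in Th1 cells, with 2.95, 3.53 and 1.97 TPM in IL-10 positive Th1 cells, against 1.12, 0.46 and 0.34 TPM in IL-10 negative Th1 cells (log2 fold change 2.23 ± 0.43 (SE), adjusted p = 4.84e-05). Elsewhere it stayed at or under 1.01 TPM in every library. The log2 fold changes in Th2 and pTh17 cells, 1.57 ± 0.61 and 1.51 ± 0.61, missed the threshold (adjusted p = 0.0619 and 0.0832). Itga5, the alpha chain of the fibronectin receptor, was not called in any culture between compartments. It was highest in pTh17 cultures, at 5.72 ± 0.16 TPM in IL-10 positive and 4.97 ± 0.37 TPM in IL-10 negative cells (SD, n = 3 each), 1.66 ± 0.11 above the other 4. Itga1, the alpha chain of another collagen receptor, did not exceed 0.31 TPM in any library.

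In the beta7 group, Itgb7 reached the highest level of any integrin chain, and its IL-10 difference changed sign between cultures. Itgb7 pairs with alpha4 to bind the gut addressin and with alphaE to bind E-cadherin. It had 885, 1002 and 991 TPM in IL-10 positive Tr1 cells, against 661, 709 and 591 TPM in IL-10 negative Tr1 cells (log2 fold change 0.64 ± 0.12 (SE), adjusted p = 4.61e-05). In Th17 cells it had 319, 379 and 318 TPM in IL-10 positive Th17 cells, against 535, 648 and 510.4 TPM in IL-10 negative Th17 cells (log2 fold change -0.59 ± 0.12 (SE), adjusted p = 6.09e-05). The compartments were apart in both cultures, in opposite directions. Th1 cells were on the side of Tr1, at 0.47 ± 0.12, although the libraries overlapped, with 400.1, 618 and 528 TPM in IL-10 positive and 339, 441 and 364 TPM in IL-10 negative cells. Th2 cells were on the side of Th17, at -0.55 ± 0.12, also with overlap. The pTh17 call (-0.36 ± 0.12, adjusted p = 0.0342) was lost when any 1 of its 6 libraries was left out. Against the other 4, Tr1 cultures differed by 1.25 ± 0.062 and pTh17 cultures by -1.01 ± 0.072.

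Itga4, the alpha chain shared by the receptors of VCAM-1 and the gut addressin, fell with IL-10 in Th17 and pTh17 cells. It had 23.4, 24.3 and 27.6 TPM in IL-10 positive Th17 cells, against 37.1, 35.8 and 42.0 TPM in IL-10 negative Th17 cells (log2 fold change -0.46 ± 0.083 (SE), adjusted p = 1.06e-05), and in pTh17 cells 6.77, 7.31 and 8.77 TPM in IL-10 positive pTh17 cells, against 9.62, 11.7 and 9.65 TPM in IL-10 negative pTh17 cells. In both cultures the compartments did not overlap. The Th1 value, -0.21 ± 0.089, passed the threshold narrowly (adjusted p = 0.0482) and was lost when any 1 of 5 libraries was left out, at -0.18 (adjusted p = 0.153) without IL-10 negative replicate 4 for example, and with median-of-ratios scaling, at -0.16 (adjusted p = 0.149). Across cultures Itga4 and Itgb7 were both highest in Tr1, at 1.15 ± 0.046 for Itga4, and both lowest in pTh17, at -1.19 ± 0.054 for Itga4.

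Itgae, the CD103 chain of tissue-resident T cells, was near the limit of detection, with no group mean above 1.63 TPM. It had 1.55, 1.25 and 2.08 TPM in IL-10 positive Th2 cells, against 0.80, 0.40 and 0.44 TPM in IL-10 negative Th2 cells (log2 fold change 1.56 ± 0.45 (SE), adjusted p = 0.00896), from 126 and 39 expected counts over the 3 libraries of IL-10 positive and negative Th2 cells. The call was lost without IL-10 negative replicate 8, at 1.38 (adjusted p = 0.0617), or IL-10 positive replicate 9, at 1.36 (adjusted p = 0.0614). Th2 cultures stood 1.31 ± 0.28 above the other 4.

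Of the alphav and beta3 group, Itgb3 was well expressed and fell with IL-10 in 4 of 5 cultures. Its chain pairs with alphav to bind vitronectin and, on platelets, with the product of Itga2b. Itgb3 had 11.1, 11.5 and 13.1 TPM in IL-10 positive Th17 cells, against 46.0, 56.2 and 52.4 TPM in IL-10 negative Th17 cells (log2 fold change -1.96 ± 0.10 (SE), adjusted p = 1.22e-19). In Th2 cells it had 56.2, 50.8 and 55.2 TPM in IL-10 positive Th2 cells, against 125, 117 and 115 TPM in IL-10 negative Th2 cells (log2 fold change -1.14 ± 0.085 (SE), adjusted p = 1.63e-13), and in Th1 cells 42.1, 42.8 and 42.8 TPM in IL-10 positive Th1 cells, against 56.6, 68.9 and 72.0 TPM in IL-10 negative Th1 cells. IL-10 positive libraries lay below IL-10 negative ones in these 3 cultures without overlap, and likewise in Tr1 cells, at -0.48 ± 0.10. In pTh17 cells the values crossed, at 23.8, 20.1 and 16.4 TPM in IL-10 positive and 20.3, 23.6 and 19.1 TPM in IL-10 negative cells, and the difference was -0.12 ± 0.10 (adjusted p = 0.462). Without IL-10 positive replicate 13 it was -0.29 (adjusted p = 0.0419). The 6 platelet and megakaryocyte markers summed to at most 2.42 CPM in any library, with Ppbp at 0 in 8 of 10 groups, and their part in the Itgb3 values was not tested.

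Itgav, the alphav chain, rose with IL-10 in pTh17 and Th2 cells. It had 6.90, 6.82 and 7.50 TPM in IL-10 positive pTh17 cells, against 3.38, 3.22 and 2.97 TPM in IL-10 negative pTh17 cells (log2 fold change 1.07 ± 0.14 (SE), adjusted p = 1.64e-07). In Th2 cells it had 4.67, 5.21 and 5.52 TPM in IL-10 positive Th2 cells, against 2.92, 2.93 and 2.42 TPM in IL-10 negative Th2 cells (log2 fold change 0.90 ± 0.13 (SE), adjusted p = 2.26e-06). The compartments were apart in both, and in the other 3 cultures the differences lay between -0.049 and 0.10 and were not called. The B cell markers were highest in pTh17 cultures: their sum was 233 to 314 CPM in IL-10 positive and 111 to 122 CPM in IL-10 negative cells, and none of the 11 markers was at 0 in IL-10 positive cells. The 12 myeloid markers moved likewise, at 27.3 to 36.4 CPM in IL-10 positive and 8.58 to 10.4 CPM in IL-10 negative pTh17 cells, with Lyz2 at 2.28 to 3.80 CPM against 0. The part of such cells in the pTh17 differences was not tested. Itgb5 was highest in pTh17 cultures, with 3.37, 4.04 and 2.60 TPM in IL-10 positive pTh17 cells, against 1.89, 2.16 and 1.03 TPM in IL-10 negative pTh17 cells (log2 fold change 0.92 ± 0.45 (SE), adjusted p = 0.16). No library of another culture exceeded 0.67 TPM. Its Tr1 call came from 6 counts in IL-10 positive replicate 17 against 0 in the IL-10 negative libraries, and without that library both groups were at 0. Itgb8, whose pair with alphav activates latent TGF-beta, was highest in IL-10 negative Th17 cells, at 0.69, 0.23 and 0.46 TPM against 0.06, 0.13 and 0.06 TPM in IL-10 positive Th17 cells, and did not exceed 0.24 TPM elsewhere.

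Among the selectin ligand genes, the enzyme genes rose with IL-10 in most cultures, while that of the carrier PSGL-1 rose in Tr1 and fell in Th17 cells. Fut7, the fucosyltransferase that completes sialyl Lewis X and so makes selectin ligands, rose in all 5 cultures. It had 15.4, 10.8 and 12.8 TPM in IL-10 positive Th17 cells, against 3.08, 2.61 and 3.55 TPM in IL-10 negative Th17 cells (log2 fold change 2.25 ± 0.23 (SE), adjusted p = 5.49e-11). In Th1 cells it had 11.4, 9.46 and 12.1 TPM in IL-10 positive Th1 cells, against 3.59, 3.80 and 3.48 TPM in IL-10 negative Th1 cells, and in pTh17 cells, where it was highest, 33.4, 30.5 and 36.2 TPM in IL-10 positive pTh17 cells, against 19.1, 17.6 and 18.9 TPM in IL-10 negative pTh17 cells. No compartments overlapped in these cultures or in Th2 cells, at 0.70 ± 0.18. Tr1 cells had only 2.39, 2.44 and 1.30 TPM in IL-10 positive and 0, 0.45 and 0.72 TPM in IL-10 negative cells, or 27 against 7 expected counts, and a log2 fold change of 2.23 ± 0.52. Against the other 4, the Fut7 level differed by 2.67 ± 0.10 in pTh17 and -3.31 ± 0.20 in Tr1 cultures.

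St3gal6, a sialyltransferase of the same pathway, rose in Th2, Th1 and pTh17 cells. It had 83.3, 75.1 and 84.2 TPM in IL-10 positive Th2 cells, against 11.1, 10.5 and 9.62 TPM in IL-10 negative Th2 cells (log2 fold change 2.95 ± 0.14 (SE), adjusted p = 1.86e-19), a larger fold than for any other member with a group mean of 5 TPM or more. In Th1 cells it had 44.6, 53.2 and 50.9 TPM in IL-10 positive Th1 cells, against 15.1, 16.9 and 14.4 TPM in IL-10 negative Th1 cells (log2 fold change 1.72 ± 0.15 (SE), adjusted p = 1.45e-12), and in pTh17 cells 14.6, 13.9 and 15.2 TPM in IL-10 positive pTh17 cells, against 8.23, 5.58 and 6.62 TPM in IL-10 negative pTh17 cells. All 3 were without overlap. In Th17 cells the libraries overlapped, at 14.9, 16.2 and 16.1 TPM in IL-10 positive and 15.2, 15.7 and 16.9 TPM in IL-10 negative cells (0.13 ± 0.17). In Tr1 cells IL-10 negative replicate 17, at 18.9 TPM, lay above the others, and without it the difference was 0.62 (adjusted p = 0.0104) in place of 0.19. The differences were unequal over cultures for Fut7 (adjusted p = 2.83e-05) and for St3gal6 (adjusted p = 8.6e-14).

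Selplg, which encodes the carrier PSGL-1, had group means between 376 and 1139.7 TPM. It had 1127, 1169.9 and 1122 TPM in IL-10 positive Tr1 cells, against 983, 999 and 992 TPM in IL-10 negative Tr1 cells (log2 fold change 0.28 ± 0.057 (SE), adjusted p = 0.000173). In Th17 cells it had 629.8, 641 and 635 TPM in IL-10 positive Th17 cells, against 1076, 1089 and 1073 TPM in IL-10 negative Th17 cells (log2 fold change -0.62 ± 0.057 (SE), adjusted p = 6.49e-12). The other 3 cultures had differences between -0.049 and -0.002 that were not called. Glg1, a carrier of E-selectin ligands, kept group means between 8.73 and 20.4 TPM, and each of its 3 calls (-0.27 ± 0.11 in Th1, 0.31 ± 0.10 in Th2 and -0.26 ± 0.10 in Th17 cells) was lost when any 1 of at least 4 libraries was left out, with Th1 values from -0.14 to -0.29 without single Th1 libraries. Cd44, the hyaluronan receptor that marks activated T cells, was highest in Th1 cultures, 1.44 ± 0.042 above the other 4. It had 25.5, 18.6 and 22.5 TPM in IL-10 positive Th2 cells, against 14.9, 16.7 and 14.5 TPM in IL-10 negative Th2 cells (log2 fold change 0.52 ± 0.084 (SE), adjusted p = 6.82e-06). Th17 cells had the same direction, at 0.49 ± 0.091, whereas pTh17 and Tr1 cells had -0.38 ± 0.082 and -0.29 ± 0.087.

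**Figure D5:**
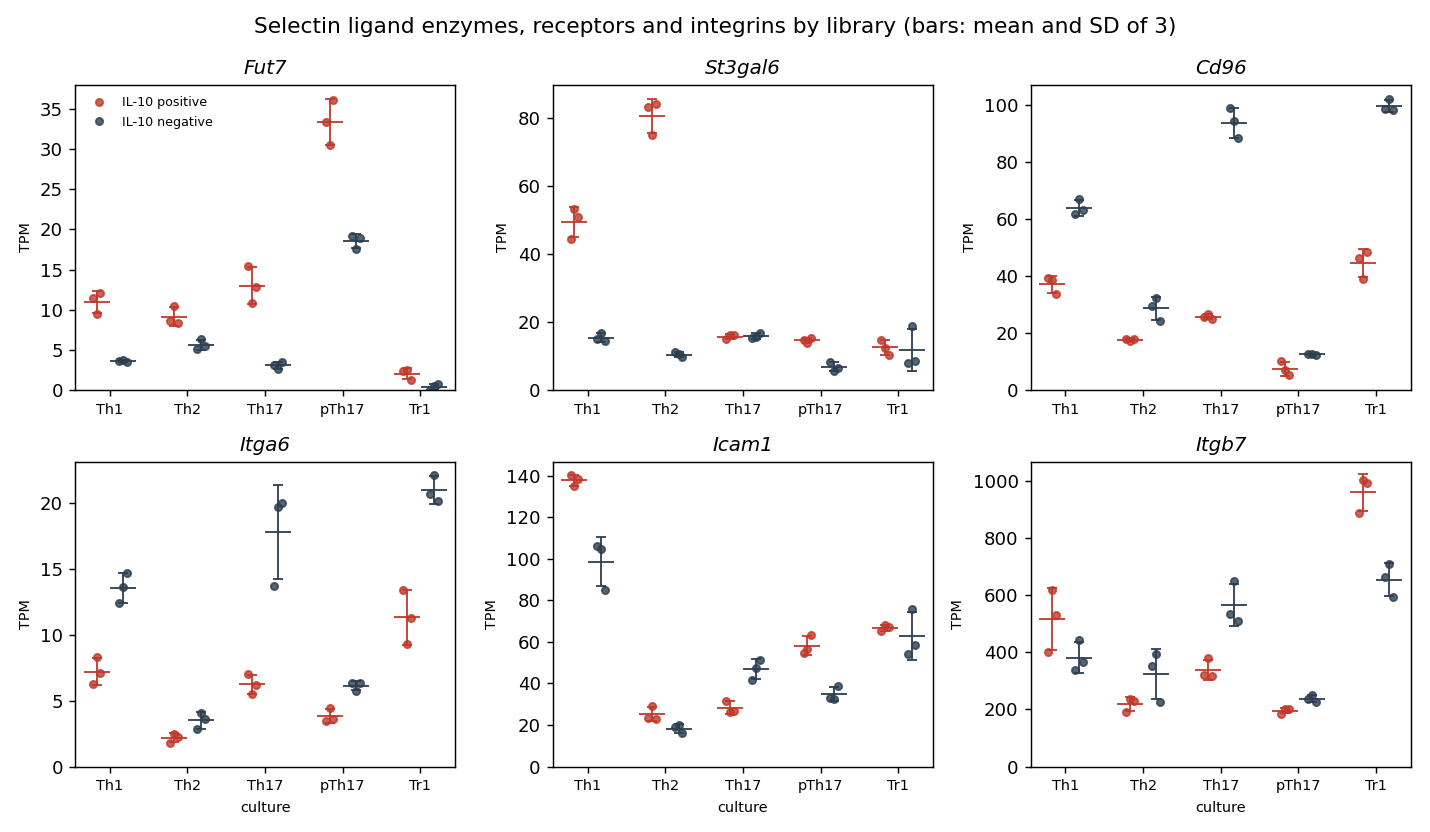
TPM of 6 members in each library (points; bars give the mean and SD of 3 libraries), IL-10 positive in red left of IL-10 negative in dark blue, by culture. Fut7 is higher and Cd96 and Itga6 are lower in IL-10 positive cells of all 5 cultures, St3gal6 is highest in IL-10 positive Th2 cells, Icam1 in Th1 cells and Itgb7 in Tr1 cells.

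Of the immunoglobulin family receptors, Cd96 fell with IL-10 in all 5 cultures. Cd96 binds the nectin-like protein CD155, as do the products of Cd226 and Tigit. It had 25.6, 26.6 and 25.1 TPM in IL-10 positive Th17 cells, against 98.8, 94.2 and 88.3 TPM in IL-10 negative Th17 cells (log2 fold change -1.72 ± 0.11 (SE), adjusted p = 3.08e-16). In Tr1 cells it had 46.2, 38.9 and 48.6 TPM in IL-10 positive Tr1 cells, against 98.6, 102 and 98.3 TPM in IL-10 negative Tr1 cells (log2 fold change -1.09 ± 0.11 (SE), adjusted p = 4.36e-10), and in pTh17 cells, where it was lowest, 10.1, 7.05 and 5.23 TPM in IL-10 positive pTh17 cells, against 12.7, 12.7 and 12.4 TPM in IL-10 negative pTh17 cells (log2 fold change -0.80 ± 0.15 (SE), adjusted p = 0.000161). IL-10 positive libraries lay below all IL-10 negative ones in each culture, including Th1, at -0.75 ± 0.11, and Th2, at -0.69 ± 0.11. Against the other 4, Tr1 cultures differed by 1.27 ± 0.063 and pTh17 cultures by -2.09 ± 0.08.

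Cd226, the activating receptor for the same ligand, was low outside Th1 cultures. It had 10.6, 9.11 and 9.93 TPM in IL-10 positive Th1 cells, against 7.74, 10.6 and 10.6 TPM in IL-10 negative Th1 cells, which overlapped (log2 fold change 0.055 ± 0.22 (SE), adjusted p = 0.863), and at most 4.82 TPM in any library of the other cultures. Th1 cultures stood 2.36 ± 0.13 above the other 4. In Tr1 cells it had 0.92, 1.04 and 1.10 TPM in IL-10 positive Tr1 cells, against 2.53, 2.81 and 2.53 TPM in IL-10 negative Tr1 cells (log2 fold change -1.35 ± 0.41 (SE), adjusted p = 0.00982). Its call in Th17 cells, 1.04 ± 0.33, was lost without IL-10 positive replicate 11, at 0.77 (adjusted p = 0.0704), or IL-10 negative replicate 12, at 0.65 (adjusted p = 0.103), and was 1.59 (adjusted p = 0.000757) without IL-10 negative replicate 10. The pTh17 call, -0.81 ± 0.27, was lost without IL-10 positive replicate 13, at -0.61 (adjusted p = 0.191), or IL-10 negative replicates 13 or 14, at -0.78 (adjusted p = 0.0784) and -0.74 (adjusted p = 0.105).

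Icam1, the ligand of LFA-1 that T cells also carry, was highest in Th1 cultures. It had 140.3, 135 and 138 TPM in IL-10 positive Th1 cells, against 106, 105 and 84.9 TPM in IL-10 negative Th1 cells (log2 fold change 0.52 ± 0.10 (SE), adjusted p = 4.66e-05). In pTh17 cells it had 54.9, 56.6 and 63.2 TPM in IL-10 positive pTh17 cells, against 33.0, 32.7 and 39.0 TPM in IL-10 negative pTh17 cells (log2 fold change 0.66 ± 0.11 (SE), adjusted p = 1.57e-05). Th17 cells went the other way, with 31.8, 26.5 and 26.8 TPM in IL-10 positive Th17 cells, against 41.6, 47.4 and 51.2 TPM in IL-10 negative Th17 cells (log2 fold change -0.57 ± 0.12 (SE), adjusted p = 6.28e-05). All 3 were without overlap. Against the other 4, Th1 cultures differed by 1.76 ± 0.054, Tr1 cultures by 0.48 ± 0.061 and Th2 cultures by -1.36 ± 0.066. Icam2, another ligand of LFA-1, fell in Th1 cells, to 35.0, 32.7 and 27.0 TPM in IL-10 positive against 63.2, 57.8 and 56.0 TPM in IL-10 negative cells (log2 fold change -0.87 ± 0.11 (SE), adjusted p = 1.7e-08). It also fell in Tr1 cells, at -0.54 ± 0.10, and was called lower in Th17 cells. There it had 76.3, 78.1 and 89.4 TPM in IL-10 positive against 96.4, 114 and 109 TPM in IL-10 negative cells. In Th1 cells the 2 ligands moved in opposite directions, and in Th17 cells both fell.

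The promoters of Icam1 and Cd96 are shown because these are the members whose promoter held the STAT letters TTCNNNGAA, and the polarising cytokines of all 5 cultures except TGFb1 and IL-1β signal through STAT proteins. The stretches run from 250 bases before to 50 bases after the RefSeq start, at chr9:21015690-21015989 on the plus strand for Icam1 and chr16:46120199-46120498 on the minus strand for Cd96 (GRCm38.p6). Capitals mark the STAT letters, which begin at position -42 in Icam1 and -79 in Cd96 and overlap none of the other motifs searched.
Icam1: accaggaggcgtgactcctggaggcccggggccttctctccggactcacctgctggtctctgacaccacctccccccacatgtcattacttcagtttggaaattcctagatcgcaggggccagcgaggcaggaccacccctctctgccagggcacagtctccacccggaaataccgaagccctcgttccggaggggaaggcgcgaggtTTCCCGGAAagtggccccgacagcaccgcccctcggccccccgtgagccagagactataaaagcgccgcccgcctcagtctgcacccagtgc
Cd96: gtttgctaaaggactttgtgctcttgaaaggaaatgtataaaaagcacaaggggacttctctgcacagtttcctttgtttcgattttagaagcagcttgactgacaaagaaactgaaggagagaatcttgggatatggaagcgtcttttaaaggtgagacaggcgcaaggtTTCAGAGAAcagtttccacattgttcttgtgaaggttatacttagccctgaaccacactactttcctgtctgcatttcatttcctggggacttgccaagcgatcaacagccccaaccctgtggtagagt
Those letters are in 8.29% of all promoters of this length and in 7.41% of the members' promoters. Both compartments of a culture received the same cytokines, and whether STAT proteins act at these promoters was not tested.

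The CD2 family pair of adhesion receptor and ligand differed in how far they moved. Cd48, the ligand of mouse CD2, rose with IL-10 in 4 cultures. It had 612, 639 and 613 TPM in IL-10 positive Th1 cells, against 368, 368 and 362 TPM in IL-10 negative Th1 cells (log2 fold change 0.79 ± 0.061 (SE), adjusted p = 1.03e-13), and in Tr1 cells 419, 416 and 379.8 TPM in IL-10 positive Tr1 cells, against 267, 266 and 266 TPM in IL-10 negative Tr1 cells (log2 fold change 0.68 ± 0.064 (SE), adjusted p = 4.91e-11). Cd48 was lowest in pTh17 cultures, with 88.0, 105 and 103 TPM in IL-10 positive pTh17 cells, against 113, 114 and 102 TPM in IL-10 negative pTh17 cells, and differed by -1.86 ± 0.041 from the other 4. Its pTh17 difference, -0.24 ± 0.07, lost its call without replicate 13 of either compartment, at -0.18 (adjusted p = 0.125) for the IL-10 positive and -0.21 (adjusted p = 0.0708) for the IL-10 negative library. Cd2 ranged only from 570.0 to 811 TPM over the group means. Its largest called IL-10 difference was -0.32 ± 0.053 in pTh17 cells, with 674, 693 and 686 TPM in IL-10 positive pTh17 cells, against 807, 809.6 and 816 TPM in IL-10 negative pTh17 cells.

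Of the genes that switch integrins on, the Rap1 isoforms and the Rap1 effector Rassf5 moved in different directions. Rap1a and Rap1b encode the small GTPase Rap1. Rap1a had 266, 284 and 263 TPM in IL-10 positive Th1 cells, against 179, 172 and 173 TPM in IL-10 negative Th1 cells (log2 fold change 0.67 ± 0.10 (SE), adjusted p = 6.7e-07). Rap1b had 135, 141 and 135 TPM in IL-10 positive Th1 cells, against 114, 101 and 99.2 TPM in IL-10 negative Th1 cells (log2 fold change 0.42 ± 0.083 (SE), adjusted p = 8.05e-05), but fell in Th17 cells, with 77.4, 88.3 and 75.5 TPM in IL-10 positive Th17 cells, against 114, 134 and 128 TPM in IL-10 negative Th17 cells (log2 fold change -0.49 ± 0.085 (SE), adjusted p = 6.48e-06). Rassf5, which links Rap1 to LFA-1, fell with IL-10 in 4 cultures, between -0.58 in Th17 and -0.25 in Th1 cells, and was at 0.012 ± 0.061 in Tr1 cells. It had 185, 181 and 188 TPM in IL-10 positive Th17 cells, against 294, 316 and 309 TPM in IL-10 negative Th17 cells. Rassf5 overlaps Eif2d in RefSeq, and the libraries carry no strand, so reads from the overlap could not be assigned by strand. Tln1 (talin) was called in Th17 cells alone, at -0.21 ± 0.076, and that call was lost without IL-10 negative replicate 12, at -0.16 (adjusted p = 0.123), or IL-10 positive replicates 11 or 12, at -0.19 (adjusted p = 0.0668) and -0.17 (adjusted p = 0.0846). Fermt3 (kindlin-3) moved by at most 0.26 in any culture, in Tr1 cells. All 5 of these genes were called higher in Th1 cultures than in the other 4, by 0.17 for Rassf5 to 0.60 for Rap1b. Of all genes 32.6% were called higher there. In Th2 cultures 4 of 5 were called higher and 0 lower, where 39.4% of all genes were called higher. Fermt3 was highest in Th2 cultures, with group means of 462 TPM in IL-10 positive and 409 TPM in IL-10 negative cells. In pTh17 cultures 4 of 5 were called lower, where 31.8% of all genes were.

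Of the adhesion complex genes, Vcl (vinculin, which ties integrins to actin) changed most. It had 17.4, 15.5 and 17.8 TPM in IL-10 positive Th1 cells, against 5.69, 6.42 and 7.63 TPM in IL-10 negative Th1 cells (log2 fold change 1.38 ± 0.12 (SE), adjusted p = 6.78e-12). In Th2 cells it had 18.3, 15.9 and 19.8 TPM in IL-10 positive Th2 cells, against 7.22, 7.83 and 8.58 TPM in IL-10 negative Th2 cells (log2 fold change 1.18 ± 0.11 (SE), adjusted p = 9.21e-11), and in Th17 cells 10.6, 10.5 and 10.4 TPM in IL-10 positive Th17 cells, against 4.98, 6.11 and 6.48 TPM in IL-10 negative Th17 cells. All 3 were without overlap, and in Tr1 cultures, where it was lowest, Vcl was at 3.57, 3.37 and 3.14 TPM in IL-10 positive and 4.57, 4.20 and 3.66 TPM in IL-10 negative cells and was not called (-0.21 ± 0.18). Its pTh17 call, 0.40 ± 0.13, was lost without IL-10 positive replicate 13, at 0.20 (adjusted p = 0.407), or IL-10 negative replicates 14 or 15, at 0.39 (adjusted p = 0.09) and 0.33 (adjusted p = 0.159). Against the other 4, Th1 cultures differed by 0.83 ± 0.072, Th2 cultures by 0.97 ± 0.065 and Tr1 cultures by -1.28 ± 0.092. Vcl overlaps Ap3m1 in RefSeq, a gene with a mean of 779.81 expected counts per library, with the same limit on strand. Pxn (paxillin) rose in Th1 cells by 0.53 ± 0.11. Ptk2b, the kinase Pyk2, had 49.3, 48.6 and 51.7 TPM in IL-10 positive Th17 cells, against 73.6, 91.0 and 88.2 TPM in IL-10 negative Th17 cells (log2 fold change -0.60 ± 0.088 (SE), adjusted p = 2.37e-07), opposite in direction to Th2, at 0.34 ± 0.087, and pTh17 cells, at 0.42 ± 0.089. In Tr1 cells none of the 3 was called.

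Lists of related genes that are not members were counted in the same fit. Of 39 tested genes of integrin activation and adhesion adaptors, 6 rose and 23 fell with IL-10 in Th17 cells, 74.4% against 58.2% of all genes, with a median of -0.30 beside -0.042 over all genes. In Th1 cells 15 rose and 9 fell, 61.5% against 43.8% of all genes, with a median of 0.030 beside -0.019. In the mean over cultures 10 of them rose and 14 fell, 61.5% and so near the 57.8% of all genes, led by Actn1, an actin crosslinker of adhesion complexes, at -0.97 ± 0.069. Of 18 tested selectin and selectin ligand genes, 8 rose and 5 fell in that mean, 72.2% against 57.8% of all genes, with a median of 0.089 beside -0.00041 over all genes. Selp, the gene of P-selectin, led them at -2.04 ± 0.09, with 20.6 ± 3.22 TPM in IL-10 positive and 39.6 ± 5.58 TPM in IL-10 negative pTh17 cells (SD, n = 3 each). Of 23 tested genes of immunoglobulin family adhesion, 10 rose and 9 fell, 82.6% against the same 57.8%, with a median of 0.064, led by Tigit, the inhibitory receptor that shares its ligand with Cd96 and Cd226, at 1.86 ± 0.054. It averaged 239 ± 7.88 TPM in IL-10 positive and 30.6 ± 2.93 TPM in IL-10 negative Tr1 cells (SD, n = 3 each). Of 12 tetraspanins 5 rose and 4 fell, 75% against 57.8%, with a median of 0.062, led by Tspan31 at 0.99 ± 0.058. Of 9 other integrin subunits 2 passed the filter, and Itga7, a laminin receptor chain, was highest in pTh17 cultures, at 97.5 ± 3.94 TPM in IL-10 positive and 129 ± 11.3 TPM in IL-10 negative cells, a difference of 3.52 ± 0.05 from the other 4.

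The same lists differed between cultures. Of 39 activation and adaptor genes, 26 were higher and 6 lower in Th1 cultures than in the other 4, 82.1% against 60% of all genes, with a median of 0.34 beside 0.026 over all genes, and 28 were lower and 7 higher in pTh17 cultures, 89.7% against 66.1% of all genes, with a median of -0.37 beside 0.013. Actn1 differed from the other 4 by 3.09 ± 0.061 in Tr1 and -3.78 ± 0.10 in Th2 cultures. Gcnt1, which builds the core branch that carries P-selectin ligands, stood 3.65 ± 0.10 above the others in Th1 cultures, where Selplg and St3gal6 were also called higher. Slamf7, a receptor of the SLAM family to which Cd48 also belongs, differed from the other 4 by 2.52 ± 0.069 in Th1 and -4.98 ± 0.13 in Th17 cultures. Of the tetraspanins, membrane proteins that sit beside integrins, Cd63 led in pTh17 cultures, at 4.91 ± 0.22, and Cd82 in Th2 cultures, at 2.32 ± 0.033.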

How the data were processed

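The authors deposited 1 table per library, made with RSEM on mm10 per the submitters' processing notes. Its version is not given in the sources used. Per the file headers, the tables hold RSEM's expected counts, which need not be whole, and TPM, the deposited level per length. Libraries followed an adapted SMART-Seq2 method, per the labels' protocols, which marks neither strand nor molecule.

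Expected counts were rounded, filtered with filterByExpr and scaled by TMM in edgeR 4.0.16 (R 4.3.3), leaving 12611 genes. A quasi-likelihood fit of 30 libraries with a mean per group gave two-sided p-values, adjusted by Benjamini-Hochberg over all genes, and the script was checked on simulated data. Standard errors are log2 fold changes over the square root of F. Levels and overlap use TPM, and markers use CPM. A bound against a group at 0 takes a floor of 3 counts over that group.

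Members and lists were chosen with earlier results of these data known. Every measured member is described. Of the other lists, the text names the called gene with the largest change and a group mean of at least 5 TPM in a comparison. Promoters are RefSeq's (GRCm38.p6). Alternatives were median-of-ratios scaling, no filter, DESeq2 1.42.0, each comparison's 6 libraries alone, a replicate block and leaving out each library.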

Additional observations from a re-analysis of the deposited data

Results flagged for a closer look

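Differences between IL-10 positive and negative cells were unequal over the 5 cultures for 29 of 34 members, against 60.7% of all genes, by the quasi-likelihood test of edgeR with Benjamini-Hochberg adjustment over all genes. Of these, 12 were called higher in at least 1 culture and lower in at least 1 other, against 13.5% of all genes tested. The adjusted p of unequal differences was 5.39e-14 for Itgb2, 2.17e-11 for Cd48, 1.30e-10 for Itgam and 1.51e-10 for Selplg. It was 5.16e-09 for Cd44, 6.95e-09 for Itgb7, 2.73e-08 for Ptk2b and 1.25e-07 for Icam1. The remaining values were 1.36e-07 for Rap1b, 8.99e-07 for Cd2, 0.000661 for Cd226 and 0.00204 for Glg1. Th17 cells held the only call of a lower level for Itgb2, Itgam, Selplg, Ptk2b, Icam1 and Rap1b. Itgb7 and Glg1 were called lower in Th17 cells and also in other cultures. For Cd2, Cd226, Cd48, Glg1, Itgb7, Ptk2b and Rap1b at least 1 call within a culture was lost when a single library was left out.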

How the results depend on the processing

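Members' calls kept their direction and their side of the threshold in 428 of 442 tests with DESeq2, 435 of 442 with median-of-ratios scaling, 420 of 442 without the filter, 146 of 154 in fits of 6 libraries and 8952 of 9180 with a library left out. Of the remaining tests with a library left out, 203 lost and 24 gained a call and 1, of Itgb5, lost its direction at a value of 0. Most tests with a library left out were of the mean, of equality or between cultures, not of the IL-10 difference within 1 culture. Leaving out single libraries gave 21 to 23 called members in Th1, against 25 with all libraries, and 19 to 22 in Th2, against 22. It gave 20 to 23 in Th17, against 25, 15 to 17 in pTh17, against 18, and 17 to 20 in Tr1 cells, against 19. It gave 25 to 27 in the mean and 26 to 29 for unequal differences. Between cultures it gave 29 to 31 for Th1, 29 to 30 for Th2, 19 to 21 for Th17, 27 to 30 for pTh17 and 24 to 27 for Tr1. The log2 fold change of Itgb5 in Tr1 cells ranged from 0.00, without IL-10 positive replicate 17, to 5.39, a fitted value against a group at 0 counts and no size of an effect. Without the filter the called members of Tr1 cells were 10 higher and 7 lower. The title numbers did not pair the samples: same-numbered libraries of 15 pairs deviated with correlations from -0.046 to 0.055, 0 of them over 0.1, and 6 of 15 IL-10 positive libraries correlated best with their own number. A fit with the number as a replicate block called 25 members in Th1, 23 in Th2, 25 in Th17, 18 in pTh17, 18 in Tr1 cells and 26 in the mean, with 28 unequal. CPM in place of TPM put the highest group elsewhere for 6 of 36 members, Cd2, Rassf5, Tln1, Ptk2b, Itga4 and Itga1. Depth limits Itgax, Itgb5, Itgae, Itga2 and Fut7 in Tr1 cells, which rest on few counts.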
